A study of Capra hircus with 9 samples.

Results

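miR-6516 and miR-1224 were described in the submandibular gland of the goat by taking every entry of a small RNA count table named miR-6516 or miR-1224, whatever its arm or ending. The rule found 5 of the 2189 entries: miR-6516-x and miR-6516-y, and chi-miR-1224, miR-1224-x and miR-1224-y. The 2 families were picked because earlier results on these data showed most of their entries higher at 12 and 24 months than at 1 month, so that difference is described here and not tested. The 9 goats, all healthy Lubo females aged 1, 12 or 24 months with 3 animals per age, were raised under natural light and fed freely, with no other treatment and no genotype given. Each library was made from TRIzol total RNA of 1 gland, so fewer cells of a type and less of a miRNA per cell cannot be told apart. Libraries are named by the numbers in their labels: the 1-month libraries are 1, 2 and 3, the 12-month libraries 3, 4 and 5, and the 24-month libraries 2, 3 and 5.

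A miRNA is cut from an RNA hairpin, whose 5p and 3p arms pair with each other, and one arm is loaded into an Argonaute protein. Bases 2 to 8 of the loaded strand, the seed, choose the messenger RNAs that it represses. miR-1224 belongs to the mirtrons, in which the hairpin is a short spliced intron: splicing replaces the cut by Drosha, the 5p arm starts at the GT of the splice donor, and the 3p arm ends near the AG of the acceptor. miR-1224 has been studied mainly in brain and in tumours. miR-6516 is a vertebrate miRNA of little known function. Among all entries named after other species, the ending x mostly marked 5p arms and y mostly 3p arms: 113 of 640 entries with x carried a seed found only among goat 5p names and 13 one found only among goat 3p names, against 14 and 108 of 632 entries with y.

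The 5 mature sequences show which entries can act on the same targets and which are forms of 1 RNA. The seed is in capitals, T stands for U as in the deposited table, and all are read 5′ to 3′.
miR-6516-x: tTTGCAGTaacaggtgtgaac
miR-6516-y: aTCATGTAtgatactgcaaaca
chi-miR-1224: gTGAGGACtcgggaggtggagg
miR-1224-x: gTGAGGACtcgggaggtggaaa
miR-1224-y: cCCCACCTcctctctcctcagt
chi-miR-1224 and miR-1224-x shared a seed that no other entry of the table carried. The seeds of miR-6516-x, miR-6516-y and miR-1224-y each occurred in 1 entry, so no other miRNA of the table shared a seed with either family. miR-6516-x and miR-6516-y therefore have different seeds, although they are the arms of 1 hairpin. The G and C content was 42.9% in miR-6516-x and 31.8% in miR-6516-y, against 68.2% in chi-miR-1224, 59.1% in miR-1224-x and 63.6% in miR-1224-y.

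The letters of the arms show how the entries fit together. A run of 9 bases at the start of miR-6516-x was the exact complement of bases 12 to 20 of miR-6516-y, shown in capitals.
miR-6516-x: TTTGCAGTAacaggtgtgaac
miR-6516-y: atcatgtatgaTACTGCAAAca
The 5p and 3p entries of miR-1224 held a complementary run of 8 bases, from base 12 to 19 of chi-miR-1224 and from base 3 to 10 of miR-1224-y.
chi-miR-1224: gtgaggactcgGGAGGTGGagg
miR-1224-y: ccCCACCTCCtctctcctcagt
Both 5p entries of miR-1224 began with GTGAG on the listed strand, as did 6 of 2189 entries (0.274%) in all. miR-1224-y ended with CAG and 1 further base, as did 67 entries (3.06%). RefSeq's goat gene table (assembly ARS1.2) lists MIR1224 between the protein-coding genes ALG3 and ABCF3, with 0 protein-coding genes overlapping it, so this annotation does not place it in an intron of a coding gene.

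chi-miR-1224 and miR-1224-x were 2 forms of the same arm. They shared their first 20 bases and differed by G21A and G22A, counted from base 1 at the 5′ end with the base of chi-miR-1224 first. The ends that differ are in capitals.
chi-miR-1224: gtgaggactcgggaggtggaGG
miR-1224-x: gtgaggactcgggaggtggaAA
Their counts are therefore not separate evidence on miR-1224. Whether the final AA is encoded in the genome was not tested, as no genome sequence was used here.

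Library totals ran from 8288492 to 13277448 counts, and 937 entries passed the filter on low counts (roughly 10 counts in at least 3 libraries, and 15 in all). All 5 entries passed, but chi-miR-1224, miR-1224-x and miR-1224-y only through the later ages, where they were high. At 1 month chi-miR-1224 had 16, 4 and 17 counts in libraries 1, 2 and 3, too few in library 2. No value of 1 occurs anywhere in the table, while 1493 values equal 2, so a listed 0 can hide a single read and no upper limit is set from it here. Library 2 at 1 month stood apart from the other 8: the summed epithelial markers (miR-200a, miR-200b, miR-200c, miR-141, miR-429, miR-203 and miR-205) took 0.767% of its counts, against 4.46% and 3.07% in 1-month libraries 1 and 3 and 8.08% to 9.25% later. Its leukocyte markers (miR-142, miR-150, miR-155, miR-223, miR-146 and miR-342) took 12.7%, against 3.73% and 5.78% in those libraries and 0.477% to 0.712% later. The epithelial markers of a salivary gland were thus present in all 9 libraries.

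Both arms of miR-6516 were several times higher at the later ages. miR-6516-x, the 5p arm, had 68, 61 and 48 counts in 1-month libraries 1, 2 and 3. It had 214, 290 and 275 counts in 12-month libraries 3, 4 and 5, and 308, 483 and 174 in 24-month libraries 2, 3 and 5. Scaled to counts per 1000000 (CPM, over library totals corrected by TMM factors), this was 5.57, 4.85 and 3.39 in the 1-month, 27.5, 30.9 and 24.7 in the 12-month, and 29.7, 54.9 and 20 in the 24-month libraries, in the same order. Every later library lay above every 1-month library, and the 24-month libraries held both the highest and the lowest of the 6 later values. Means were 4.60 ± 1.11, 27.7 ± 3.12 and 34.9 ± 18 CPM (SD, n = 3 goats per age). The fitted log2 difference from 1 month was 2.59 (SE 0.46) at 12 months and 2.92 (0.47) at 24 months.

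miR-6516-y, the 3p arm, had 79, 16 and 54 counts in 1-month libraries 1, 2 and 3, 201, 260 and 309 at 12 months, and 368, 448 and 214 at 24 months. In CPM the libraries stood at 6.47, 1.27 and 3.81 at 1 month, at 25.9, 27.7 and 27.7 at 12 months, and at 35.5, 50.9 and 24.6 at 24 months. The 12-month goats were nearly equal (27.1 ± 1.08 CPM), library 2 was far the lowest at 1 month (3.85 ± 2.6), and the 24-month goats spread widely (37.0 ± 13.2). The 1-month libraries did not overlap with the later ones. The log2 difference from 1 month was 2.81 (SE 0.57) at 12 months and 3.26 (0.58) at 24 months, and 2.38 and 2.83 without 1-month library 2. By count, miR-6516-y ranked 525 to 847 among the entries of the 1-month libraries and 273 to 346 in the later ones.

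chi-miR-1224, the goat-named 5p form, was rare at 1 month, with 16, 4 and 17 counts. It had 53 and 86 counts in 12-month libraries 3 and 4, with more in library 5, and 197, 149 and 74 in 24-month libraries 2, 3 and 5. The CPM were 1.31, 0.318 and 1.20 in the 1-month, 6.82, 9.17 and 12.3 in the 12-month, and 19.0, 16.9 and 8.52 in the 24-month libraries. The ages 12 and 24 months overlapped, and both lay above 1 month in every library. Means were 0.943 ± 0.544, 9.43 ± 2.75 and 14.8 ± 5.55 CPM. The log2 difference from 1 month was 3.31 (SE 0.59) at 12 months and 3.96 (0.61) at 24 months. Without 1-month library 2 these were 2.88 and 3.53, and without 12-month library 5 the first was 2.63.

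miR-1224-x, the form ending in AA, was listed at 0 in all 3 libraries at 1 month. It had 15, 35 and 68 counts at 12 months and 80, 58 and 32 at 24 months, or 3.92 ± 2.09 and 6.0 ± 2.08 CPM. Since the 1-month value is a listed 0, no fold is given. miR-1224-y, the 3p arm, was near the limit of detection throughout, with 2 counts in 1-month library 3 and 0 in the other two. It had 3, 11 and 9 counts at 12 months, and 14, 14 and 0 at 24 months, so its ages overlapped between 24 months and 1 month. With 2 counts in 1 library behind the 1-month level, no fold is given for it either.

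**Figure D1:**
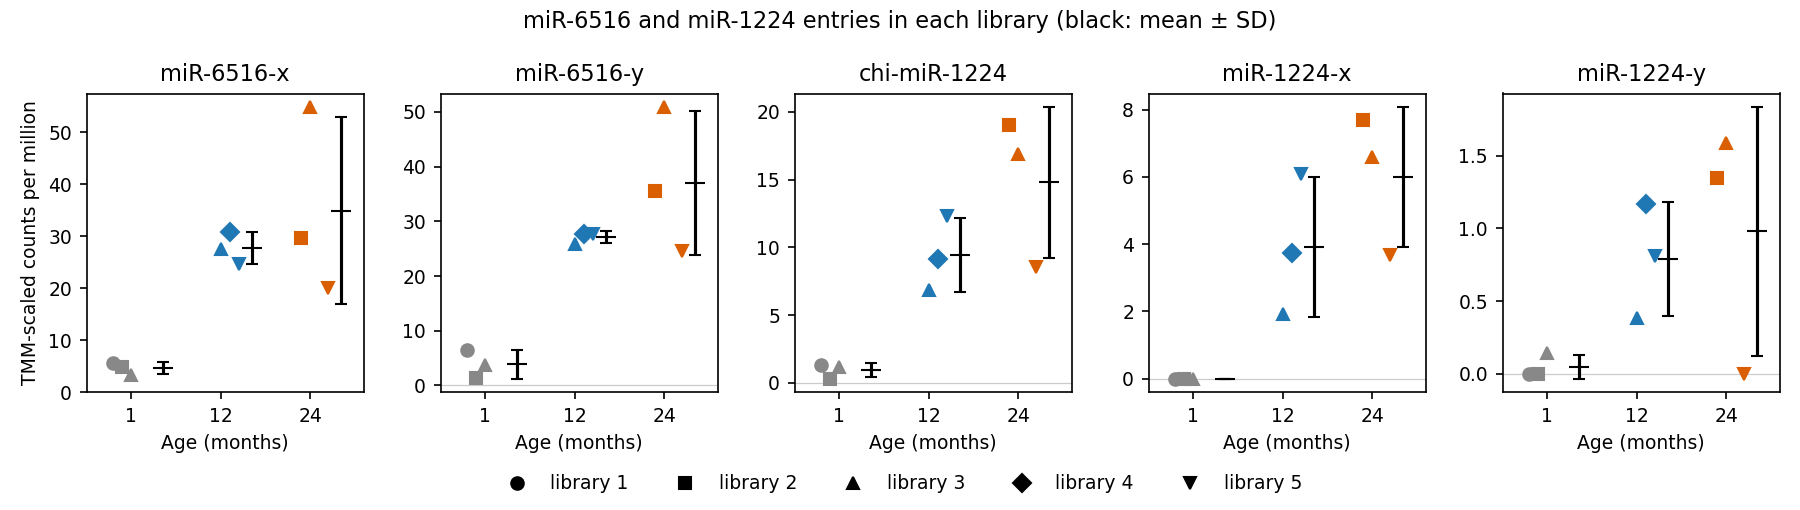
CPM (TMM-scaled, linear axes with a separate range per panel) of the 5 entries against age in months. Each point is 1 library, its shape gives the library number, and black bars are the mean ± SD of 3 goats; the 1-month points lie below the later ones in every panel except that of miR-1224-y, where 24-month library 5 is listed at 0.

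The shares of all tested entries that behaved alike set these differences in context. Between 12 months and 1 month, 26.3% of the 937 tested entries had higher values with no overlap between the ages, as had all 5 entries described here. Between 24 months and 1 month the share was 21.3%, against 4 of the 5. By edgeR's quasi-likelihood test with Benjamini-Hochberg adjustment, 5.98% of tested entries were called higher at 12 months and 8.75% at 24 months. The same 4 of the 5 were among them at both ages, all but miR-1224-y. Both contrasts chose the entries, so nothing is read from these counts. Among the 788 tested entries with a family name, the difference of chi-miR-1224 ranked 11, that of miR-6516-y 16 and that of miR-6516-x 23 in order from the highest at 12 months, and 11, 17 and 21 at 24 months.

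The difference between 24 and 12 months was not used to choose the entries and was tested. No entry of either family passed. The log2 difference was 0.33 for miR-6516-x (95% interval −0.62 to 1.29), 0.45 for miR-6516-y (−0.71 to 1.61), 0.65 for chi-miR-1224 (−0.52 to 1.82), 0.61 for miR-1224-x (−0.73 to 1.94) and 0.30 for miR-1224-y (−2.20 to 2.81). edgeR's adjusted p was 0.998 for each of the 5, and 0.881 to 1 over the alternatives. The values at 24 months overlapped with those at 12 months for all 5 entries, and 9.82% of tested entries did not overlap. Over all entries edgeR called 0% (0 of 937, with 40 at an unadjusted p under 0.05), DESeq2 called 0 (42) and limma voom 0 (13). The intervals still allow a rise of 2.44-fold for miR-6516-x and 3.54-fold for chi-miR-1224, so a change of that size was not resolved. Without 12-month library 5 the difference for miR-1224-x was 1.33 (adjusted p = 1.00 by edgeR).

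**Figure D2:**
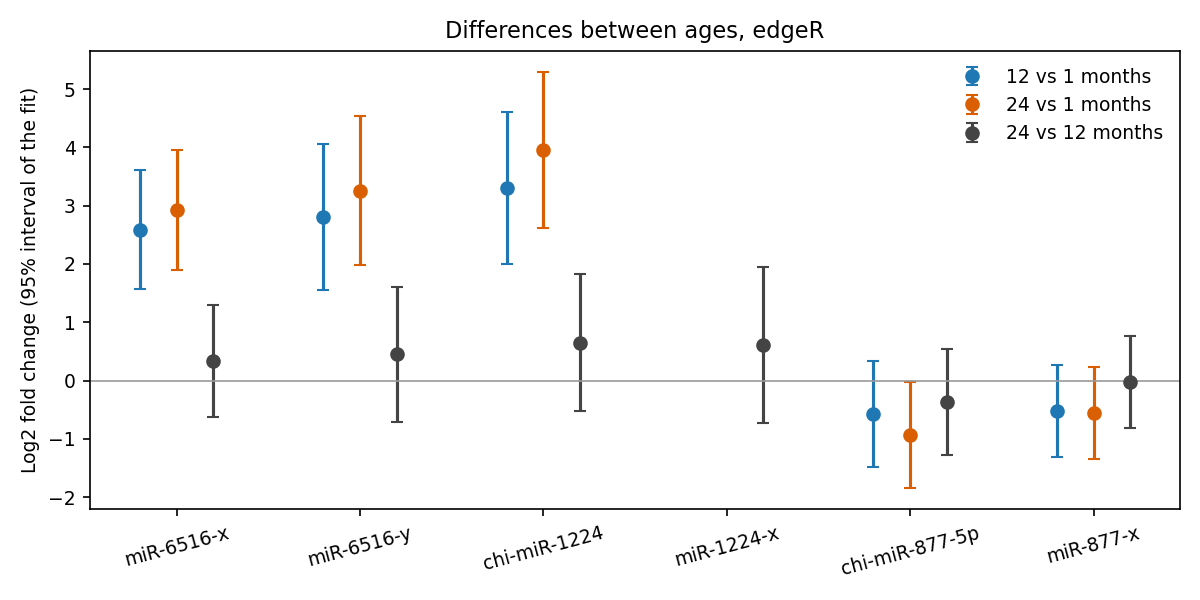
Log2 fold changes from the edgeR fit of all 9 libraries, with 95% intervals. Members of both families except miR-1224-y are shown, with the 2 tested entries of miR-877, another mirtron. Blue and orange points compare 12 and 24 months with 1 month, black points compare 24 with 12 months; the black intervals all cross 0, and miR-1224-x has no value against 1 month, where it is listed at 0.

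Among the 6 later libraries the entries other than miR-1224-y varied by 2 to 4 times. The highest later library stood above the lowest by 2.74 times for miR-6516-x, 2.07 times for miR-6516-y, 2.78 times for chi-miR-1224 and 3.99 times for miR-1224-x. 24-month library 3 had the highest miR-6516, with 54.9 CPM of the 5p arm (95% counting interval 50.1 to 60.0) and 50.9 of the 3p arm (46.3 to 55.9). Library 2 of that age came next for the 3p arm, at 35.5 CPM (31.9 to 39.3), and 12-month library 4 for the 5p arm, at 30.9 (27.5 to 34.7). The highest chi-miR-1224 was in 24-month library 2, at 19.0 CPM (16.4 to 21.8), but library 3 was within counting error of it, at 16.9 (14.3 to 19.9). The same held for miR-1224-x, at 7.71 (6.11 to 9.59) and 6.59 (5.01 to 8.52) CPM. miR-1224-y was highest in library 3, at 1.59 CPM against 1.35 in library 2, and was listed at 0 in 24-month library 5.

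The arms of miR-6516 were present in nearly equal numbers, with 1 library apart. miR-6516-y made up 53.7% of the counts of both arms in 1-month library 1 (Wilson 95% interval 45.7 to 61.6%) and 52.9% in library 3 (43.3 to 62.3%). In 1-month library 2 it made up 20.8% (13.2 to 31.1%), below the other 8 libraries. The share was 48.4, 47.3 and 52.9% at 12 months and 54.4, 48.1 and 55.2% at 24 months. The mean log2 ratio of 3p to 5p counts was −0.50 ± 1.21 at 1 month, −0.03 ± 0.17 at 12 months and 0.15 ± 0.22 at 24 months. For 24 against 12 months an exact two-sided permutation test gave p = 0.3 (adjusted p = 0.75 over the 3 comparisons of ages). With 3 against 3 the p cannot go below 0.1. The comparisons with 1 month chose the entries, so they entered the adjustment but are given as values only. Without 1-month library 2 the differences from 1 month turned to −0.22 at 12 months (0.48 with it) and to −0.04 at 24 months (0.65 with it). That library was also the one with the fewest epithelial and the most leukocyte markers, and the part of its makeup in the arm ratio was not tested.

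The 2 forms of the 5p arm of miR-1224 had similar shares in the 6 later libraries. miR-1224-x made up 22.1% of the counts of both forms in 12-month library 3 (Wilson 95% interval 13.8 to 33.3%), 28.9% in library 4 (21.6 to 37.6%) and 33.2% in library 5 (27.1 to 39.9%). At 24 months it made up 28.9% (23.9 to 34.5%), 28.0% (22.3 to 34.5%) and 30.2% (22.3 to 39.5%). Means were 28.1 ± 5.61% and 29.0 ± 1.09%, a difference smaller than the spread at 12 months (exact two-sided permutation p = 0.9, n = 3 per age). At 1 month it made up 0 of 37 counts over the 3 libraries, where the later share of 29.3% would give 10.8. This last comparison was made after the values were seen and uses a contrast that chose the entries, so it carries no test.

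That share was high for this table. Of 66 pairs in which an entry named after another species shared its first 18 bases with a goat-named entry and then departed from it, 32 had an entry ending in AA, and 31 of these had at least 10 counts at every age. Over the 31 pairs the median share of the AA form was 1.94% at 1 month, 2.48% at 12 months and 3.07% at 24 months. In 16 of the 31 the share was higher at both later ages than at 1 month and in 6 it was lower at both. Among the 31, the pairs over 20% at both later ages, named after their values were seen, were 4: miR-1224-x, miR-134-x, miR-324-y and miR-345-y. The last 3 stood at 12.5, 78.6 and 28.0% at 1 month, when miR-1224-x was listed at 0. The other AA form of the 31 listed at 0 at 1 month and above 0 at both later ages was miR-628-x, at 2.17 and 3.90% later. The remaining pair, under 10 counts at every age, was miR-877-y with chi-miR-877-3p, the 3p arm of another mirtron. Its AA form was listed at 0 of 6 counts at 1 month, and made up 100% of 2 counts at 12 months and 33.3% of 6 at 24 months.

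**Figure D3:**
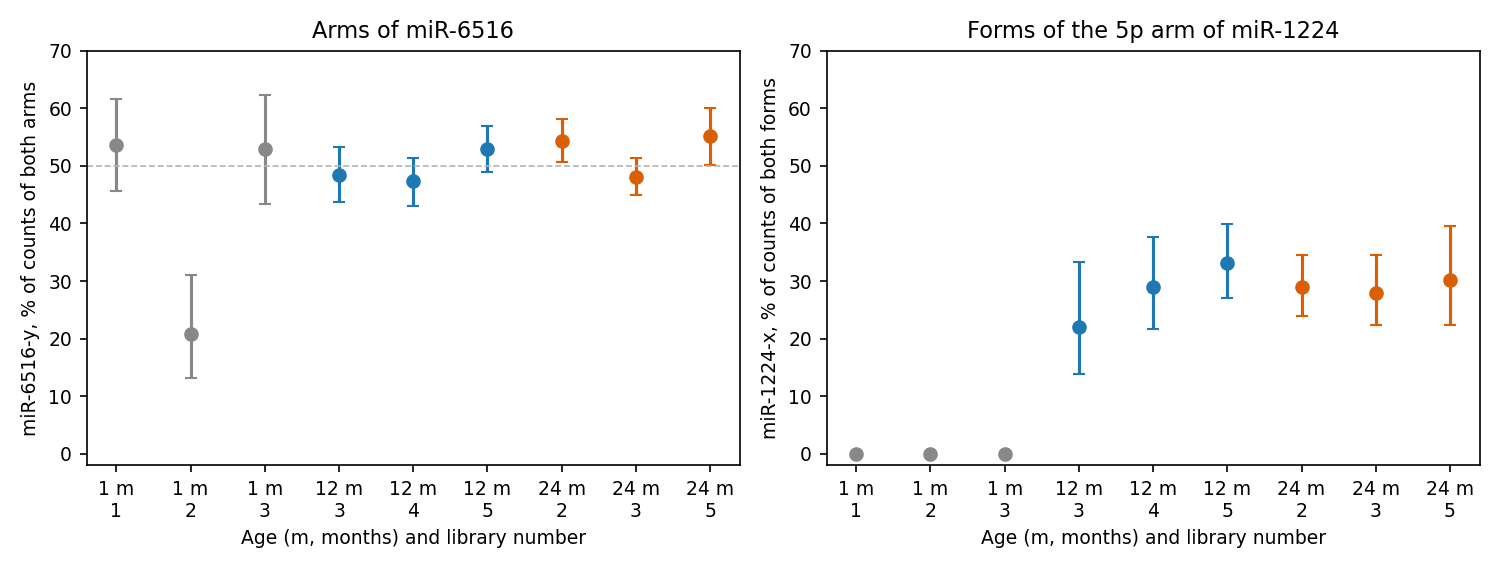
Left, the share of miR-6516-y in the counts of both arms; right, the share of miR-1224-x in the counts of both 5p forms of miR-1224, in percent for each of the 9 libraries, grouped by age. Bars are Wilson 95% intervals for counting error, left out where the share is listed at 0; 1-month library 2 lies at 20.8% on the left, and the later libraries lie between 22.1 and 33.2% on the right.

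The share of miR-1224 in the counts of both families had higher means at the later ages, with wide spread between goats. Summed over its entries, miR-1224 made up 9.82, 4.94 and 15.7% of the counts of both families in 1-month libraries 1, 2 and 3, 14.6, 19.4 and 26.8% at 12 months, and 30.1, 19.2 and 21.5% at 24 months. All 24-month libraries lay above all 1-month libraries, and the 12-month libraries overlapped with both. The log2 ratio of miR-1224 to miR-6516 was −3.22 ± 0.86, −2.01 ± 0.55 and −1.72 ± 0.45 at 1, 12 and 24 months. For 24 against 12 months the exact two-sided permutation p was 0.5 (adjusted p = 0.5 over the 3 comparisons of ages), where 0.1 is the smallest possible, so no result could pass 0.05. The comparisons with 1 month chose the entries, so they entered this adjustment but are not read as tests. This ratio does not depend on how libraries are scaled. The miR-1224 sum takes in miR-1224-x, listed at 0 at 1 month. With chi-miR-1224 over miR-6516-y alone, the differences from 1 month of 1.21 and 1.5 were 0.37 and 0.59.

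The epithelial and gland markers were also higher in the later libraries, as both families were. Gland markers (miR-148a, miR-375, miR-7, miR-216 and miR-217, known from secretory tissue) took 8.25, 1.24 and 6.21% of counts in 1-month libraries 1, 2 and 3 and 13.9 to 17.3% later. Per 1000000 counts of the epithelial list, a measure added after the data were seen, miR-6516 stood at 319, 757 and 285 in 1-month libraries 1, 2 and 3. In the 12-month libraries it stood at 620, 677 and 577, and in the 24-month libraries at 676, 1100 and 478. Here 1-month library 2 lay within the later libraries, while libraries 1 and 3 lay below them. miR-1224 stood at 34.7, 39.3 and 53.2 in the 1-month, 106, 162 and 212 in the 12-month, and 291, 262 and 131 in the 24-month libraries, with no overlap between 1 month and later. The log2 ratio of the mean at 12 months to that at 1 month was 0.46 for miR-6516 and 1.92 for miR-1224, against 2.7 and 3.84 in CPM of the library. At 24 months it was 0.73 and 2.43, against 3.09 and 4.46. The miR-1224 sums take in miR-1224-x, listed at 0 at 1 month, and miR-1224-y, with 2 counts there. The size of the miR-1224 ratios rests in part on these entries. chi-miR-1224 alone had a fitted log2 difference in CPM of 3.31 at 12 months and 3.96 at 24 months. Relative to the gland list, the ratios were 0.41 and 1.92 at 12 months and 0.6 and 2.38 at 24 months. The small values of miR-6516 rest in part on 1-month library 2. Without that library miR-6516 stood at 1.05 and 1.32 relative to the epithelial list at 12 and 24 months, and at 1.14 and 1.33 relative to the gland list. In CPM of the library it then stood at 2.51 and 2.9, so it was still lower relative to either list. miR-1224 without that library stood at 1.86 and 2.38, and at 1.95 and 2.41, against 3.42 and 4.04 in CPM. The part of the changing cell makeup in the levels of either family was not tested.

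**Figure D4:**
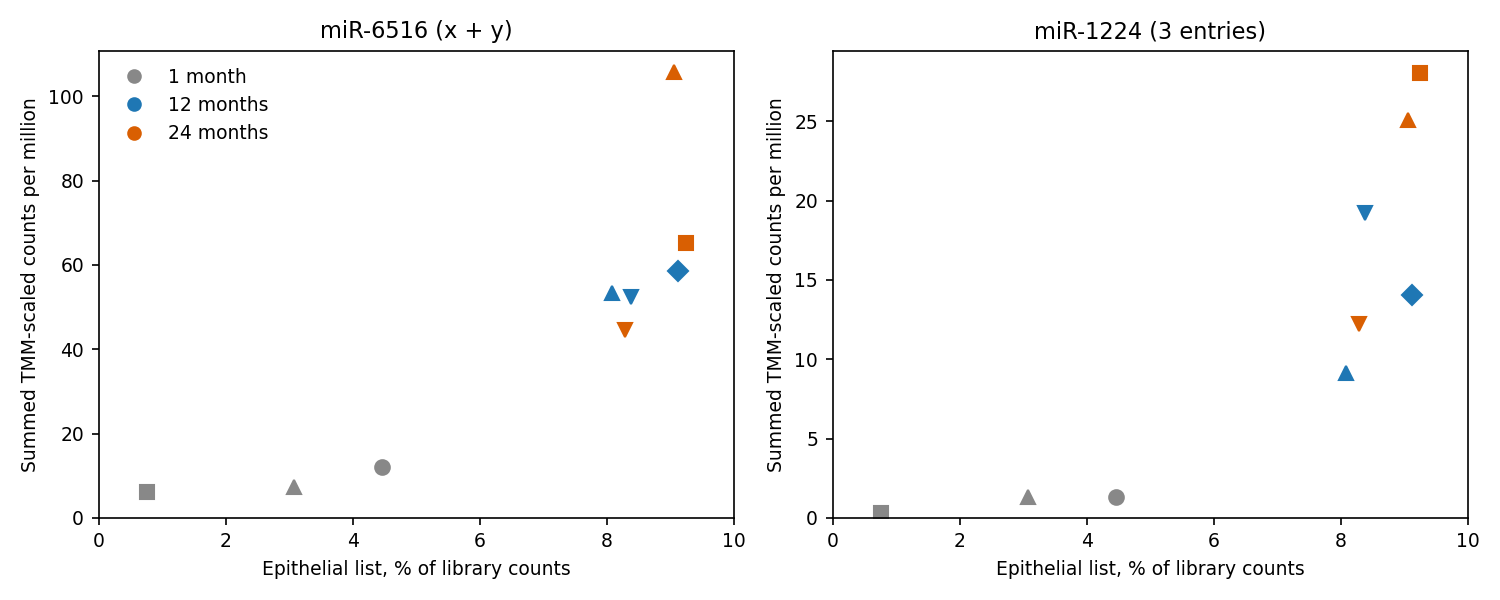
Summed CPM (TMM-scaled) of the 2 miR-6516 entries (left) and the 3 miR-1224 entries (right) against the percent of library counts on epithelial marker miRNAs. Each point is 1 library (circle 1, square 2, upward triangle 3, diamond 4, downward triangle 5); the 1-month libraries lie at 0.767 to 4.46% and low on both vertical axes, the later ones at 8.08 to 9.25%.

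Of the other mirtrons listed, only miR-877 could be compared. A list of 11 further mirtron numbers matched 7 entries, of which 2 passed the filter. Both were the 5p arm of miR-877: chi-miR-877-5p and miR-877-x, a longer form. As forms of the same arm they are not separate evidence, and they do not stand for the class. edgeR called 0 of the 2 higher and 0 of the 2 lower in any comparison, where it called 13.2% of tested entries lower at 12 months than at 1 month and 17.5% lower at 24 months. chi-miR-877-5p stood at 10.5 ± 2.82, 7.09 ± 1.05 and 5.48 ± 1.47 CPM at 1, 12 and 24 months, and miR-877-x at 18.2 ± 3.94, 12.6 ± 1.36 and 12.4 ± 2.31 CPM. Against 1 month, chi-miR-877-5p had a log2 value of −0.57 (SE 0.41, adjusted p = 0.316 by edgeR) at 12 months and −0.94 (0.41, adjusted p = 0.106) at 24 months. miR-877-x had −0.53 (0.36, adjusted p = 0.297) and −0.55 (0.36, adjusted p = 0.27). Without a call, miR-877-x was lower with no overlap at 12 and at 24 months than at 1 month, and chi-miR-877-5p at 24 months (interval −1.85 to −0.03). Of all tested entries, 22.2% at 12 months and 25.8% at 24 months were lower with no overlap. The median of the 2 was −0.55 and −0.75, against −0.02 and −0.06 over all tested entries. The difference between the 2 mirtrons was not tested, since chi-miR-1224 was chosen for its own.

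The entries with the most similar profiles were found among named entries of at least 10 CPM, by Pearson correlation of log2(CPM + 1) over the 9 libraries. The members differed most between 1 month and later, so these values mostly restate that gap. The value over the 6 later libraries is given as well. miR-6516-y was most like chi-miR-141 (0.988, and 0.914 over the later libraries), a miRNA that helps to keep cells epithelial. Next came its other arm miR-141-x (0.985 and 0.498) and miR-101-y (0.981 and 0.619). chi-miR-141 itself is one of the epithelial markers, and stood at 4330 ± 2540, 25400 ± 1960 and 27900 ± 3390 CPM at 1, 12 and 24 months. miR-6516-x was most like miR-186-x (0.970 and 0.867), chi-miR-499-3p (0.966 and 0.841) and miR-103-y (0.960 and 0.817).

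chi-miR-1224 was most like chi-miR-499-5p (0.974 and 0.929), a miRNA carried in an intron of a muscle myosin gene. chi-miR-499-5p stood at 32.0 ± 10.6, 77.9 ± 11.7 and 97.5 ± 28.3 CPM at 1, 12 and 24 months. The summed muscle markers (miR-1, miR-133, miR-206 and miR-499) were highest in 12-month library 4. They took 0.247% of its counts. In 1-month libraries 1, 2 and 3 they took 0.0606, 0.0150 and 0.0346%, and in the other later libraries 0.0226 to 0.0428%. The part of muscle in the level of chi-miR-1224 was not tested. Neural markers were miR-9, miR-124, miR-128, miR-129, miR-137 and miR-219, of which lymphocytes also carry miR-128. They took 0.723, 3.48 and 0.419% of counts in 1-month libraries 1, 2 and 3, and 0.0290 to 0.0564% later. After chi-miR-499-5p, chi-miR-30b-3p (0.964 and 0.636) and miR-375-y (0.964 and 0.737) were most like chi-miR-1224, the latter a regulator of secretion. miR-375-y went from 8370 ± 224 to 23100 ± 5640 and 31900 ± 2380 CPM at 1, 12 and 24 months, and it also led the entries like miR-1224-x (0.972 and 0.757), ahead of chi-miR-3431-3p (0.950 and 0.888) and chi-miR-30b-3p (0.950 and 0.646). By Spearman's rho 0 of these 3 stayed among the 3 most like miR-1224-x. miR-1224-y, with its few counts, had lower values over the 9 libraries: 0.877 with miR-11976-y, 0.875 with miR-11975-x and 0.860 with chi-miR-499-3p. Over the 6 later libraries these pairs stood at 0.901, 0.896 and 0.984. Between the members, the 2 arms of miR-6516 had a correlation of 0.949 over 9 and 0.917 over 6 libraries, and the 2 forms of miR-1224 one of 0.982 and 0.953. miR-6516-x and chi-miR-1224 stood at 0.940 over 9 but 0.547 over the 6 later libraries, and miR-6516-y and chi-miR-1224 at 0.974 and 0.797. Over the 6 later libraries, pairs across the families ranged from 0.372 (miR-6516-x with miR-1224-x) to that 0.797. All of these values come from the same libraries and totals and are a description only.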

How the data were processed

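Small RNA of 9 goat submandibular glands was analysed, 3 goats at each of 3 ages. The authors deposited raw read counts for 2189 mature miRNA entries with their sequences, per the file headers. Per the submitters' processing notes, FastQC and Bowtie were used, with no version stated. The database release, genome build and mismatch rules were not given in the sources used here. All 9 count columns matched a label. Reads carry no known molecular identifiers, so intervals cover counting error only.

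Entries were filtered by edgeR's filterByExpr (minimum count 10, minimum total 15) and all libraries were fitted together (edgeR 4.0.16, R 4.3.3, TMM, robust quasi-likelihood with 6 residual degrees of freedom and a biological coefficient of variation of 0.534), with Benjamini-Hochberg adjustment over 937 entries at 0.05. Ratios within libraries had 0.5 added to each count and exact permutation tests over libraries. Alternatives were 3 other scalings, DESeq2 1.42.0, limma voom 3.58.1, 2 other filters, only the ages compared, a replicate block and leaving out each library. Entries to name were all members, the 3 most alike of each, those sharing a seed, and a mirtron list. Members and lists were chosen with earlier results of these data known.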

Additional observations from a re-analysis of the deposited data

How the results depend on the processing

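Both arms of miR-6516 and chi-miR-1224 had positive differences from 1 month at 12 and 24 months under all 18 alternatives run. They and miR-1224-x were also called by each of these, except that none was called at 12 months with the replicate block. Of all 937 tested entries, 0 (replicate block) to 115 (DESeq2) were called higher at 12 months. At 24 months these numbers were 27 and 153. Both contrasts chose the entries, so nothing is read from the calls. The difference of miR-6516-x between 12 months and 1 month was 2.30 with only the ages compared, and ranged from 2.25 to 2.75 on leaving out 1 library. Between 24 months and 1 month it ranged from 2.34 to 3.09 on leaving out 1 library. The small difference of miR-1224-y between 24 and 12 months turned to −0.58 with limma voom, and was 1.06 without 24-month library 5. The arm difference of miR-6516 ranged from −0.22 to 0.84 (12 against 1 month) and from −0.04 to 1.01 (24 against 1 month) on leaving out 1 library. For 24 against 12 months miR-877-x turned to 0.03 with DESeq2 size factors, 0.03 with DESeq2 and 0.01 with only the ages compared. On leaving out 1 library it ranged from −0.10 to 0.31 and chi-miR-877-5p from −0.37 to 0.03. The causes were not tested.

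The 180 entries called between 12 months and 1 month were 285 with DESeq2, and 83 (without 12-month library 4) to 218 (without 1-month library 2) on leaving out 1 library. For 24 against 1 month the 246 calls ranged from 116 to 255 on leaving out 1 library, with 158, 116 and 161 without 24-month libraries 2, 3 and 5. For 24 against 12 months the count was 5 with no filter, and 0 to 2 on leaving out 1 library, the 2 without 12-month library 5. Library size alone moved the median of all entries from −0.02 to −0.20 (12 against 1 month) and the share of higher calls from 31.1% to 14.4%. With limma voom that share was 43.2%. On leaving out 1 library the median moved further, over the entries that then passed the filter. It ranged from −0.45 (without 12-month library 5) to 0.07 (without 1-month library 2). Without 24-month library 2, 3 or 5 it was −0.40 each time.

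The replicate numbers of the labels come from different goats at each age. The main fit therefore did not pair libraries by number. Deviations from the age means had correlations from −0.212 to 0.178 between same-numbered libraries, and from −0.327 to 0.285 between differently numbered ones. Whether same-numbered libraries shared a processing step cannot be told from these few pairs. With the number as a replicate block the calls were 4, 0 and 71 for 12 against 1, 24 against 12 and 24 against 1 month. Of the 5 members, 0 were called at 12 months (lowest edgeR adjusted p = 0.0896) and 4 at 24 months. The block put miR-6516-x at 2.97 and miR-6516-y at 3.49 for 12 against 1 month, and miR-1224-y at −0.28 for 24 against 12 months. Of the 3 profiles most alike, Spearman's rho kept 1 each for miR-6516-x, miR-6516-y and chi-miR-1224 and 0 for miR-1224-x and miR-1224-y; unscaled CPM kept 2, 3, 2, 1 and 2. Depth limits miR-1224 most: chi-miR-1224 had 4 to 17 counts in a 1-month library, and miR-1224-y at most 14 in any.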
